A study of Mus musculus with 14 samples.

Results

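The genes described here were 10 genes of phosphate transfer, purine turnover, oxygen storage and fatty acid binding in muscle: the creatine kinases Ckm, Ckb, Ckmt1 and Ckmt2, the AMP deaminases Ampd1 and Ampd3, the adenylate kinase Ak1, the creatine transporter Slc6a8, myoglobin (Mb) and the heart and muscle fatty acid binding protein Fabp3. They were chosen by name, each as the transcript row whose annotation begins with that gene symbol, and all 10 were found among the 24016 transcripts of the RNA-seq table. 9 of the 10 were expressed, meaning that their mean over all libraries was at least 1 FPKM, as it was for 14312 transcripts in all. The exception was Ckmt1. Measurements were made in C2C12 cells, an established mouse myoblast line that fuses into myotubes when serum is lowered. The cells received either a control siRNA (siCtrl) or a pool of siRNAs against Klf5 (siKlf5), a Krüppel-like zinc-finger factor, in growth medium, and were then kept in differentiation medium with horse serum. PolyA RNA was sequenced on days 0, 1, 2 and 3 of differentiation, which gave 8 libraries, 1 for each siRNA and day, and no replicates. Knockdown by siRNA is transient and incomplete, and 1 pool was used, so an effect of the pool and an effect of Klf5 loss cannot be told apart. The study's 6 ChIP-seq samples were not analysed here. FPKM is reads per kilobase of exon, scaled here to 10000000 reads per library, so the values are larger than those of the usual FPKM.

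Creatine kinases move phosphate between ATP and creatine, which lets a contracting fibre hold a store of phosphocreatine near the myofibrils. The muscle form and the brain form work in the cytosol as dimers, and forming myotubes are known for a switch from the brain form towards the muscle form, while a ubiquitous and a sarcomeric form sit in mitochondria. When ATP use outpaces supply, adenylate kinase makes ATP and AMP from ADP, and AMP deaminase removes the AMP by turning it into IMP, the first step of the purine nucleotide cycle.

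The target of the siRNA was reduced in every siKlf5 library. Klf5 (NM_009769) stood at 224, 381, 614 and 933 FPKM on days 0, 1, 2 and 3 in siCtrl cells and at 35.1, 159.6, 192 and 211 FPKM in siKlf5 cells. The siKlf5 level was 15.7%, 41.9%, 31.3% and 22.7% of that in siCtrl cells on the successive days. Klf5 thus kept climbing in both series, and the knockdown was weakest on day 1. Fitted over the 4 days with limma, the log2 difference was -1.92 (SE 0.19, adjusted p = 0.0122). That call was lost with no filter on low values (limma adjusted p = 0.561), with no intensity trend (0.438), with siRNA alone in the model (1.00) and when the 2 libraries of any 1 day were left out (0.178 to 0.679), while the estimate stayed between -2.15 and -1.69.

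Recovered depth was 12178834, 7850495, 20301473 and 12366635 reads in the siCtrl libraries and 11136808, 8119454, 11808648 and 10864075 reads in the siKlf5 libraries, each in day order. Low genes were therefore measured least precisely on day 1. All 8 markers of skeletal myoblasts and myotubes (Myod1, Myf5, Des, Myog, Mymk, Myh3, Acta1 and Tnnt1) were expressed, and none was at 0 in any library. Their summed level was 3332, 12178, 12158 and 15308 FPKM in siCtrl cells and 2807, 11747, 14328 and 14243 FPKM in siKlf5 cells, with Acta1, skeletal alpha-actin, the most abundant on days 1, 2 and 3 in both. Within that list Myog, the gene of the differentiation factor myogenin, stood at 479, 1896, 2061 and 2293 FPKM in siCtrl cells and at 328, 1517, 1739.6 and 1386 FPKM in siKlf5 cells, the lower in siKlf5 cells on each day, and its part in the results below was not tested. Mb and Fabp3 are also abundant in heart. Of 5 cardiomyocyte markers, 2 passed the expression filter, the natriuretic peptide gene Nppa was at 0 in every library, and the list summed to between 1.62 and 69.3 FPKM, the highest value being that of siCtrl cells on day 3. Of 4 adipocyte markers and 3 endothelial markers, none passed the filter. Of 4 macrophage markers 2 passed, the most abundant being Cd68 at 1.91 to 23.5 FPKM. Of 4 neuron markers only Stmn2 passed, at 176 to 339 FPKM, with Snap25 at 0 in every library, and of 3 erythroid markers only Hba-a1 passed, at 21.0 to 198 FPKM, with Hbb-b1 at 0 in every library.

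The promoters of 3 creatine kinase genes are shown because these genes took 3 different courses, described below: Ckm climbed under both siRNAs, Ckb stood lower and Ckmt2 higher in siKlf5 cells. Each window holds 250 bases before and 50 bases after the transcription start in RefSeq, build GRCm38.p6, read 5′ to 3′ on the strand of the gene. Ckm lies at chr7:19410844-19411143 on the plus strand, Ckb at chr12:111672289-111672588 on the minus strand and Ckmt2 at chr13:91876836-91877135 on the minus strand. Capitals mark every match, on either strand, to an E-box (CANNTG), a MEF2-like motif (CTA and TAG with any 4 bases between them), a KLF-like motif (CCNCNCCC) or a TATA box (TATAAA).
Ckm: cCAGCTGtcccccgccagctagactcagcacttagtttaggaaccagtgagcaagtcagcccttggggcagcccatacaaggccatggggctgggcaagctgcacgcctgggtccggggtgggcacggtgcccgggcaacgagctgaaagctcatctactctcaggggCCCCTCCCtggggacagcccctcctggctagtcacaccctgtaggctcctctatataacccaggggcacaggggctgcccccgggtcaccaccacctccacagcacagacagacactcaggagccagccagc
Ckb: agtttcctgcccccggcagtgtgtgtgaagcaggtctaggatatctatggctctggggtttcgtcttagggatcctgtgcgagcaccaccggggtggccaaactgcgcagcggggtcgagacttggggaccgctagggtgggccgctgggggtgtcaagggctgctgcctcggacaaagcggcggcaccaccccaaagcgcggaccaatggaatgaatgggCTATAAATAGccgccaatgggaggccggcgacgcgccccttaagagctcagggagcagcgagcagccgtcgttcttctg
Ckmt2: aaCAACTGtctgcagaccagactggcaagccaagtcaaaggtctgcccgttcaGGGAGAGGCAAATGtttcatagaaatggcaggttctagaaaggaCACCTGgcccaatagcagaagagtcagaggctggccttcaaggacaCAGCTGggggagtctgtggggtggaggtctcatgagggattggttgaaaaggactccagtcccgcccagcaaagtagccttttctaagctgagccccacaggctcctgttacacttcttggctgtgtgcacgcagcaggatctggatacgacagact

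The 3 windows differed in what they held. The Ckm window had 1 E-box, at bases -249 to -244 from the start, and 1 KLF-like match at -82 to -75. The Ckb window had no E-box, and its single capital run, at -29 to -20, matched the MEF2-like motif and held the TATA box at -28 to -23 within it. The Ckmt2 window had 4 E-boxes, the farthest at -248 to -243 and the nearest at -107 to -102, and a KLF-like match at -197 to -190 that ran straight into an E-box. These letters are common: among 32851 promoter windows of the same length, 72.3% held an E-box, 49.5% a KLF-like match, 13.6% a TATA box and 3.69% a MEF2-like match. Windows were found for 8 of the 10 genes, 16 windows in all, and Ampd1 and Slc6a8 had no entry. Counted by window, 13 of the 16 held an E-box, 10 a KLF-like match, 3 a TATA box and 2 a MEF2-like match, and windows of 1 gene can overlap. A match is a description of letters and not a measured site.

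**Figure D1:**
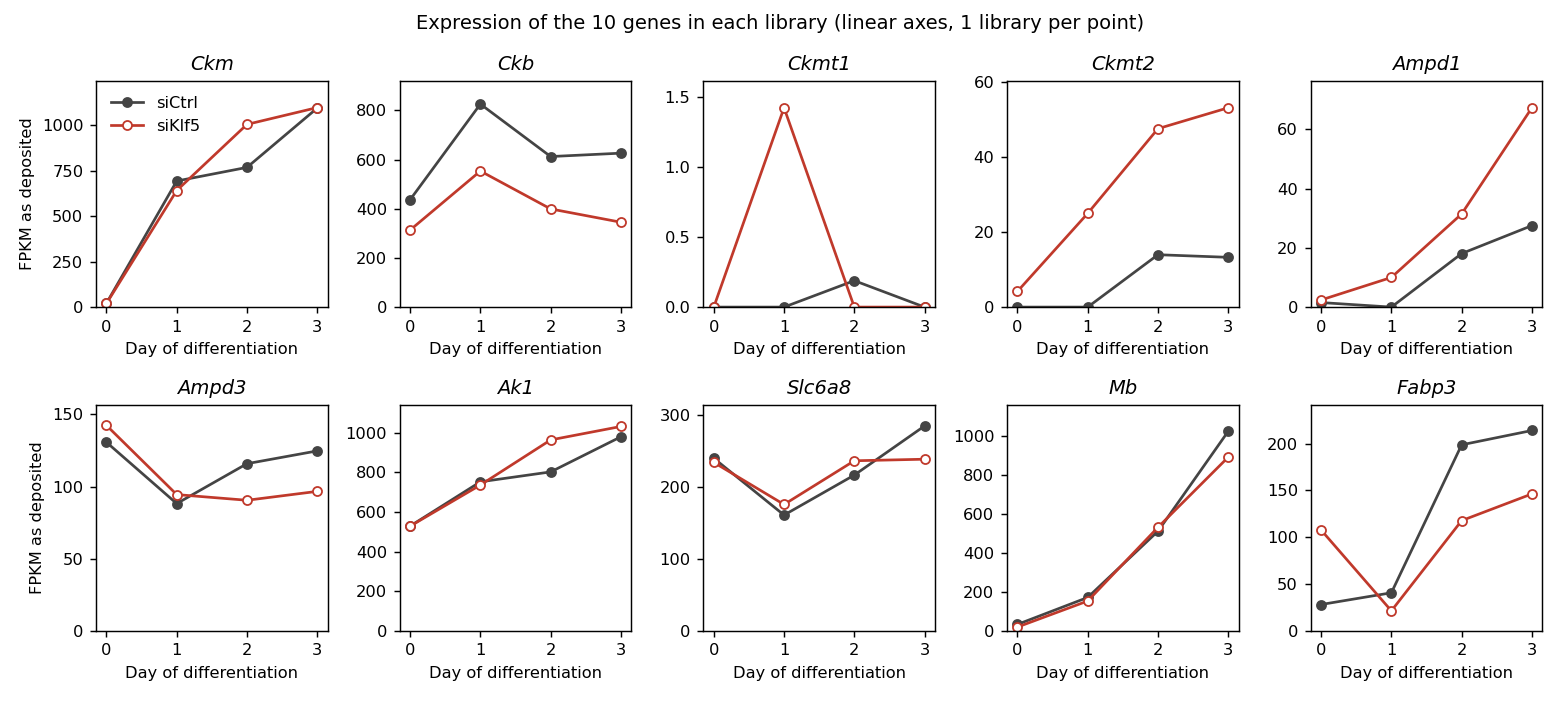
FPKM as deposited (y axis, linear, a separate scale for each gene) against day of differentiation (x axis) for the 10 genes, with siCtrl libraries as filled grey points and siKlf5 libraries as open red points, 1 library per point. Ckm reached 1094 and 1096 FPKM on day 3, while Ckb lay lower and Ckmt2 higher in siKlf5 cells on each of the 4 days.

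The muscle creatine kinase Ckm climbed steeply under both siRNAs. Ckm (NM_007710, chr7:19996443-20006932, plus strand, build mm9) stood at 21.0, 693, 768 and 1094 FPKM in siCtrl cells and at 19.9, 640.4, 1004 and 1096 FPKM in siKlf5 cells on days 0 to 3. The main step fell between days 0 and 1, and the 2 series met again on day 3 after a gap on day 2. On day 2 the siKlf5 level was 131% of that in siCtrl cells, with a 95% interval of 0.21 to 0.56 on the log2 scale, and on day 3 the ratio was 100.2% with an interval of -0.18 to 0.19. All such intervals are exact Clopper-Pearson intervals on reads divided by 6, because reads came in clumps, and they cover counting error only. In the limma fit across all expressed transcripts, Ckm rose by 5.68 on the log2 scale from day 0 to day 3 (SE 0.14, adjusted p = 2.35e-07). For siKlf5 against siCtrl over the 4 days the fitted difference was 0.05 (SE 0.10, adjusted p = 0.909), which misses the threshold of 0.05 and does not show that the levels were equal. Reads of both strands were counted together, and 451 of the 1415 exon bases of Ckm in the GENCODE annotation overlap exons of the antisense gene A930016O22Rik, so reads from the pair cannot be told apart there. That antisense gene was listed at 2.98, 109.5, 124 and 176 FPKM in siCtrl cells and at 4.16, 94.5, 165 and 167 FPKM in siKlf5 cells.

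The brain form Ckb was lower in siKlf5 cells on all 4 days. Ckb (NM_021273, chr12:112907566-112910549, minus strand, mm9) stood at 437, 826, 613 and 626 FPKM in siCtrl cells and at 313, 554, 399 and 345 FPKM in siKlf5 cells. Both series peaked on day 1, and the ranges of the 2 series overlapped across days although the siKlf5 library was the lower of the pair on each day. The siKlf5 level was 71.7%, 67.0%, 65.2% and 55.1% of that in siCtrl cells on days 0, 1, 2 and 3. None of the 4 counting intervals held equality: the interval nearest to it, on day 0, ran from -0.80 to -0.16 on the log2 scale, and the farthest, on day 3, from -1.15 to -0.58. Over the 4 days the fitted log2 difference was -0.63 (SE 0.08) with a limma p of 4.68e-05 and an adjusted p of 0.0556, just short of the threshold. With only transcripts of a mean of at least 10 FPKM in the fit, the limma adjusted p was 0.0355. Across the other alternatives the limma adjusted p ran from 0.0509 to 1.00. It was 0.561 with no filter, 0.478 with no intensity trend and 0.254 to 0.679 when the 2 libraries of 1 day were left out. The fitted log2 difference of Ckb between day 3 and day 0 was 0.33 (SE 0.12, limma adjusted p = 0.0647).

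Ckm and Ckb side by side give the share of the muscle form within each library, a ratio that library scaling cannot move. Ckm made up 4.58%, 45.6%, 55.6% and 63.6% of the summed FPKM of both in siCtrl cells and 5.97%, 53.6%, 71.5% and 76.0% in siKlf5 cells. The share was thus higher in the siKlf5 library on each day, by the most on day 2. Its rise from day 0 to day 3 came without a fall of Ckb between those days. On day 3 Ckb was at 143% of its day 0 level in siCtrl cells. In siKlf5 cells it was at 110%, with an interval of -0.21 to 0.48 on the log2 scale. On day 2 the 95% counting intervals of the shares were 52.7% to 58.6% and 67.9% to 75.0%, and on day 3 they were 60.3% to 66.8% and 72.5% to 79.4%, so they did not overlap on either day. They did overlap on day 0, at 2.30% to 8.54% and 2.52% to 11.0%, and on day 1, at 41.0% to 50.3% and 48.4% to 58.7%. With 1 library for each point, no test of the shares between siRNAs was made. The summed level of Ckm and Ckb was 458, 1519, 1380.2 and 1720.1 FPKM in siCtrl cells and 333, 1194, 1403 and 1442 FPKM in siKlf5 cells. The day 3 total was therefore smaller in siKlf5 cells, with Ckm at the same level and Ckb at the lower one.

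**Figure D2:**
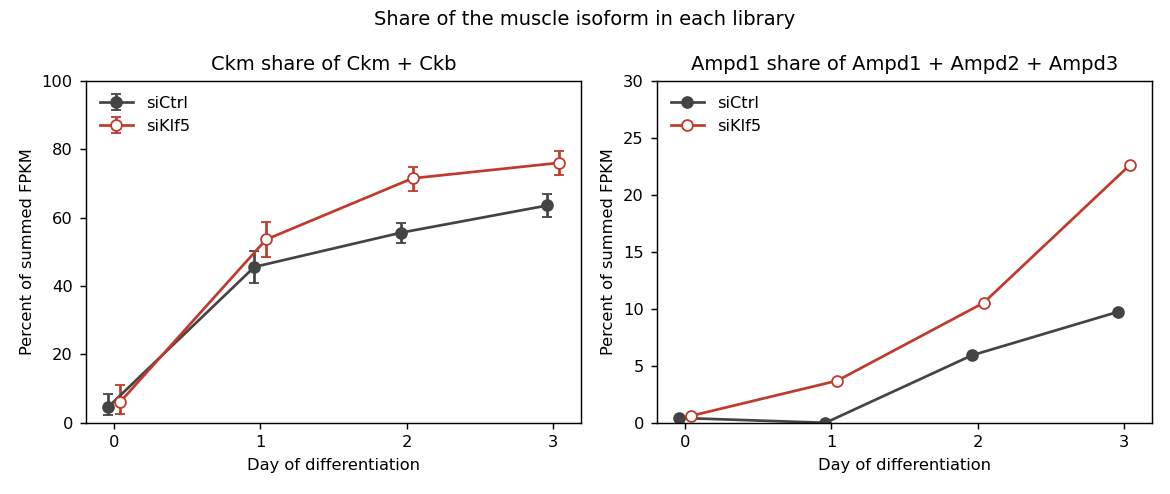
Percent of summed FPKM (y axis) against day of differentiation (x axis) in siCtrl (filled grey) and siKlf5 (open red) libraries, for Ckm among Ckm and Ckb (left, bars are 95% counting intervals) and Ampd1 among Ampd1, Ampd2 and Ampd3 (right, no interval computed). On day 3 the Ckm share was 63.6% and 76.0% and the Ampd1 share 9.75% and 22.6% in siCtrl and siKlf5 cells.

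Of the mitochondrial forms, the sarcomeric Ckmt2 was present and the ubiquitous Ckmt1 was near 0. Ckmt2 (NM_198415, chr13:91992992-92016490, minus strand, mm9) was listed at 0, 0, 13.9 and 13.2 FPKM in siCtrl cells and at 4.17, 24.9, 47.5 and 53.0 FPKM in siKlf5 cells. The siKlf5 library was the higher of the pair on each day, and its day 1 value exceeded every value of the siCtrl series. These levels rest on few reads: 0, 0, 69 and 40 reads in siCtrl cells and 11, 49, 136 and 140 reads in siKlf5 cells. On day 2 the level was 3.41-fold higher in siKlf5 cells, with an interval of 0.66 to 2.87 on the log2 scale, and on day 3 it was 4.01-fold higher, with an interval of 0.64 to 3.38. On day 1, against 0 reads in siCtrl cells, the interval of the ratio began at 0.71 on the log2 scale and had no upper end. On day 0 the siKlf5 value lay under 6.21 FPKM, which is 3 clumps of 6 reads in the siCtrl library and the limit that a count of 0 allows, and no fold is given. Over the 4 days the fitted log2 difference was 2.67 (SE 0.52) with a limma p of 0.000743 and an adjusted p of 0.142, and this fitted size depends on the pseudocount, since 2 libraries were at 0: it was 4.28 with a pseudocount of 0.1 and 1.65 with 5. Without the 2 libraries of day 1 it was 2.00. From day 0 to day 3 Ckmt2 rose by a fitted 3.61 (SE 0.73, limma adjusted p = 0.00678), a size that was 5.35 with a pseudocount of 0.1 and 2.26 with 5. That call was lost when all 24016 transcripts were fitted (limma adjusted p = 0.131) and when siRNA was left out of the model (limma adjusted p = 0.101). Ckmt1 (NM_009897, chr2:121184377-121189473, plus strand, mm9) was listed at 0 in 6 of the 8 libraries, at 0.189 FPKM from 1 read in siCtrl cells on day 2 and at 1.42 FPKM from 3 reads in siKlf5 cells on day 1. At this depth no difference in Ckmt1 was detectable.

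Slc6a8, which carries creatine into the cell across the plasma membrane, stayed between 161 and 284 FPKM. Slc6a8 (NM_001142809, chrX:70918472-70927839, plus strand, mm9) stood at 239, 161, 216 and 284 FPKM in siCtrl cells and at 234, 175, 236 and 238 FPKM in siKlf5 cells. Its lowest value fell on day 1 in both series, and the series overlapped. On day 3 the siKlf5 level was 83.8% of that in siCtrl cells, with an interval of -0.48 to -0.03 on the log2 scale. Neither the fitted siRNA difference of -0.01 (SE 0.09, limma adjusted p = 0.986) nor the fitted day 3 difference of 0.14 (SE 0.13, limma adjusted p = 0.469) passed the test. Of the 2 enzymes that make creatine, Gamt, which adds the methyl group in the last step, rose by 1.07 from day 0 to day 3 (SE 0.17, limma adjusted p = 0.00195). Gamt went from 199 to 416 FPKM in siCtrl cells and from 162.5 to 345 FPKM in siKlf5 cells. Gatm, which makes the precursor guanidinoacetate, stood between 673 and 1035 FPKM and did not pass the test (fitted log2 difference -0.11, SE 0.11, limma adjusted p = 0.517).

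Among the AMP deaminases, the muscle form Ampd1 was higher in siKlf5 cells from low levels. Ampd1 (NM_001033303, chr3:102877937-102903643, plus strand, mm9) was listed at 1.53, 0, 18.1 and 27.5 FPKM in siCtrl cells and at 2.41, 10.0, 31.4 and 67.3 FPKM in siKlf5 cells. Reads numbered 7, 0, 141 and 131 in siCtrl cells and 10, 31, 142 and 280 in siKlf5 cells. The siKlf5 library was the higher of the pair on each day, but the ranges of the 2 series overlapped across days. On day 2 the level was 1.74-fold higher in siKlf5 cells with an interval of -0.09 to 1.67 on the log2 scale, which holds equality, and on day 3 it was 2.45-fold higher with an interval of 0.53 to 2.09. On day 1, against 0 reads in siCtrl cells, the interval began at -0.18 and so held equality. The day 0 interval, -3.13 to 7.02, held it too. Over the 4 days the fitted log2 difference was 1.48 (SE 0.51) with a limma p of 0.0191 and an adjusted p of 0.404. That size was 2.34 with a pseudocount of 0.1, 0.89 with 5, and 0.82 without the 2 libraries of day 1. From day 0 to day 3 Ampd1 rose by a fitted 3.91 (SE 0.72, limma adjusted p = 0.0043), a call lost when all transcripts were fitted (limma adjusted p = 0.111). That size was 4.41 with a pseudocount of 0.1 and 2.80 with 5.

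The form named for red blood cells, Ampd3, was the more abundant of the pair in every library. Ampd3 (NM_001276301, chr7:117911720-117955922, plus strand, mm9) stood at 131, 88.2, 116 and 125 FPKM in siCtrl cells and at 142, 94.5, 90.5 and 96.7 FPKM in siKlf5 cells. The siKlf5 library was the higher on days 0 and 1 and the lower on days 2 and 3. On day 2 the siKlf5 level was 78.1% of that in siCtrl cells, with an interval of -0.69 to -0.04 on the log2 scale, and on day 3 it was 77.5%, with an interval of -0.73 to -0.02. Neither the siRNA difference of -0.12 (SE 0.13, limma adjusted p = 0.780) nor the day 3 difference of -0.31 (SE 0.18, limma adjusted p = 0.224) passed the test. Ampd1 made up 0.429%, 0%, 5.92% and 9.75% of the summed FPKM of Ampd1, Ampd2 and Ampd3 in siCtrl cells and 0.604%, 3.69%, 10.5% and 22.6% in siKlf5 cells. The share on day 3 was the highest of each series.

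Ak1, the cytosolic adenylate kinase of muscle, was the most abundant of the 10 genes on day 0. Ak1 (NM_021515, chr2:32485020-32490578, plus strand, mm9) stood at 528.5, 752, 802 and 979 FPKM in siCtrl cells and at 528, 736, 963 and 1031 FPKM in siKlf5 cells. The 2 series were nearly the same on days 0 and 1. On day 2 the siKlf5 level was 120.1% of that in siCtrl cells with an interval of 0.12 to 0.41 on the log2 scale, and on day 3 it was 105% with an interval of -0.08 to 0.23. From day 0 to day 3 Ak1 rose by 0.93 (SE 0.11, limma adjusted p = 0.000497), while the siRNA difference of 0.08 (SE 0.08, limma adjusted p = 0.785) did not pass. Ak1, Ckm and Mb had up to 2.69, 2.58 and 2.10 reads per exon base. For Ak1 and Ckm that was the siCtrl library of day 2, beside 1.87 and 1.95 in siKlf5 cells that day. At most 3 reads per position were kept in the counting, so such values may be understated. Ckb had 2.06 reads per exon base in the siCtrl library of day 2, beside 0.777 in siKlf5 cells. The limit on reads per position could bear on the day 2 ratios of Ak1, Ckm and Ckb and on the day 2 Ckm share. The size of the effect was not tested.

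Myoglobin, the oxygen store of muscle, climbed day by day. Mb (NM_001164048, chr15:76845917-76853157, minus strand, mm9) stood at 32.8, 171, 511 and 1023 FPKM in siCtrl cells and at 19.2, 153, 530.4 and 890.3 FPKM in siKlf5 cells. Unlike Ckm, whose main step fell before day 1, Mb gained more FPKM after day 1 than before it in both series. The siKlf5 library was the lower on days 0, 1 and 3 and the higher on day 2. On day 3 it was at 87.0% of the siCtrl level, with an interval of -0.44 to 0.04 on the log2 scale. Mb rose by 5.19 from day 0 to day 3 (SE 0.18, limma adjusted p = 7.67e-07), and its siRNA difference of -0.26 (SE 0.13, limma adjusted p = 0.532) did not pass.

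Fabp3, which carries fatty acids through the cytosol, differed between siRNAs in opposite directions on day 0 and later. Fabp3 (NM_010174, chr4:129986022-129992707, plus strand, mm9) stood at 28.1, 40.6, 199 and 214 FPKM in siCtrl cells and at 108, 21.3, 118 and 146 FPKM in siKlf5 cells. It was the higher in siKlf5 cells on day 0 and the lower on days 1, 2 and 3. On day 0 the level was 3.83-fold higher in siKlf5 cells, from 122 against 35 reads, with an interval of 0.51 to 3.48 on the log2 scale. On day 2 it was at 59.2% with an interval of -1.49 to -0.07, whereas the intervals of days 1 and 3 held equality. For the difference in slope per day between siRNAs the limma estimate was -0.72 (SE 0.27) with a p of 0.0262 and an adjusted p of 0.929. Without the 2 libraries of day 0 that slope difference was 0.18, so its sign rests on day 0. Its fitted difference between day 3 and day 0 was 1.66 (SE 0.58, limma adjusted p = 0.0603). In the GENCODE annotation 81 of the 640 exon bases of Fabp3 overlap exons of the antisense gene Zcchc17, which had a mean of 143 FPKM. Zcchc17 stood at 148, 131, 112 and 104 FPKM in siCtrl cells and at 208, 171, 141 and 128 FPKM in siKlf5 cells, the higher in siKlf5 cells on all 4 days while Fabp3 was so on day 0, and its part in the Fabp3 values was not tested.

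**Figure D3:**
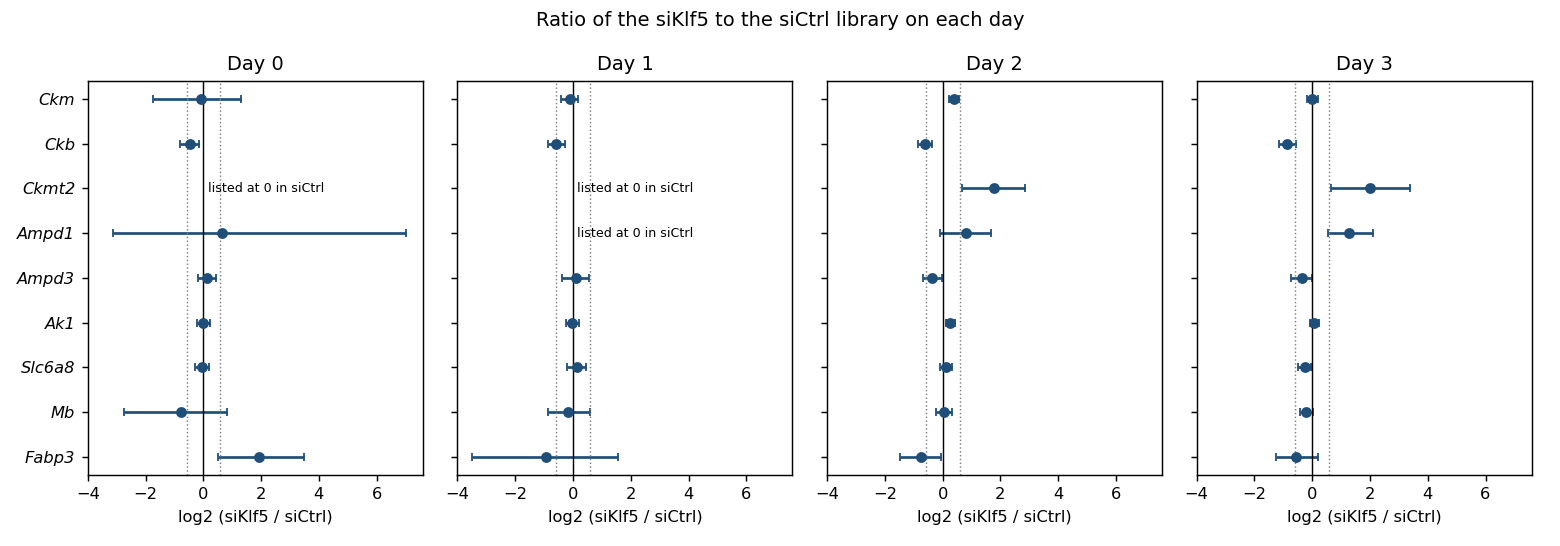
Log2 of the siKlf5 to siCtrl FPKM ratio (x axis) for the 9 expressed genes (y axis) on days 0, 1, 2 and 3, with 95% counting intervals as bars, a solid line at equality and dotted lines at 1.5-fold. The Ckb interval lay below equality on all 4 days, the Ckmt2 interval above it on days 2 and 3, and no ratio is drawn where the siCtrl library was listed at 0.

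Read over the 9 expressed genes, the siRNA comparison gave no call. At an adjusted p under 0.05 limma called 0 of the 9 genes, against a background of 0.0699% of the 14312 expressed transcripts, with 1 called higher (0.00699%) and 9 called lower (0.0629%). At an unadjusted p under 0.05 there were 3 of the 9, Ckb, Ckmt2 and Ampd1, beside 9.90% of all expressed transcripts. For the difference in slope 0 of the 9 passed after adjustment, as did 0% of all transcripts, and 1 of the 9, Fabp3, had an unadjusted p under 0.05, beside 4.90% of all. The residual of these fits holds the change of the siRNA effect between days as well as the noise between libraries, and the sources do not say that the days came from separate cultures.

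The counts past 1.5-fold on each day, on the log2(FPKM + 1) scale and without a test, named Ckmt2 and Ampd1 as higher and Ckb and Fabp3 as lower on more than 1 day. On day 0 Ckmt2 and Fabp3 were past 1.5-fold higher in siKlf5 cells, Ckmt2 from a value under the limit given above, and Mb past 1.5-fold lower, beside 8.18% and 10.0% of all expressed transcripts. On day 1 Ckmt2 and Ampd1 were higher, both against siCtrl libraries at 0, and Fabp3 lower, beside 15.6% and 10.3% of all. On day 2 Ckmt2 and Ampd1 were higher and Ckb and Fabp3 lower, beside 6.78% and 11.6% of all. On day 3 Ckmt2 and Ampd1 were higher and Ckb lower, beside 9.90% and 11.6% of all. Ckb lay at 67.0% on day 1, just inside the cutoff, and passed it there under both other library scalings, while on day 2 it was at 65.2% and fell inside the cutoff under both. The median log2 ratio of the 9 genes was -0.00094, -0.03, 0.13 and -0.20 on days 0, 1, 2 and 3. For all expressed transcripts it was 0.00092, 0.03, -0.03 and 0. Since the 9 genes went both ways, these medians decide nothing about the set.

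Over differentiation, by contrast, 5 of the 9 genes rose from day 0 to day 3 and none fell: Ckm, Mb, Ampd1, Ckmt2 and Ak1. The background was 13.0% of expressed transcripts called higher (1865) and 18.0% called lower (2579) by limma. Under upper-quartile scaling that split was 2214 higher and 1956 lower, and under median-ratio scaling 2229 and 1903. At an unadjusted p under 0.05, Ckb and Fabp3 joined the 5, making 7 of the 9, beside 42.0% of all expressed transcripts. Within siCtrl cells 6 of the 9 genes were past 1.5-fold higher on day 3 than on day 0, the same 5 and Fabp3, beside 21.8% of all, and within siKlf5 cells it was the 5, beside 21.0%. None of the 9 was past 1.5-fold lower in either series, beside 22.7% and 23.0% of all. From day 0 to day 3 Ckm went up 52.1-fold in siCtrl cells and 55.1-fold in siKlf5 cells, with wide intervals of 4.76 to 6.72 and 4.85 to 7.06 on the log2 scale, since day 0 held 58 and 50 reads. Mb went up 31.2-fold and 46.4-fold, from 62 and 33 reads on day 0, with overlapping intervals of 4.11 to 6.08 and 4.43 to 7.31. Ak1 went up 1.85-fold and 1.95-fold. The order of the genes by level per length changed with differentiation. In siCtrl cells on day 0 it ran Ak1, Ckb, Slc6a8, Ampd3, Mb, Fabp3, Ckm and Ampd1, with Ckmt2 and Ckmt1 at 0, and on day 3 it ran Ckm, Mb, Ak1, Ckb, Slc6a8, Fabp3, Ampd3, Ampd1 and Ckmt2, with Ckmt1 at 0. Without replicates, no spread is at hand to say which neighbours in this order differ. In RNA from whole cultures, fewer differentiating cells and less RNA per cell cannot be told apart, and the summed skeletal markers given above were higher on days 1, 2 and 3 than on day 0, as Ckm and Mb were. From day 1 to day 2 in siCtrl cells and from day 2 to day 3 in siKlf5 cells that sum was flat. Its members moved both ways, however. In siCtrl cells Acta1, Des and Myod1 were lower on day 2 than on day 1, and Myf5, Myog, Mymk, Myh3 and Tnnt1 higher. In siKlf5 cells Acta1, Myf5, Myog and Mymk were lower on day 3 than on day 2, and Myod1, Des, Myh3 and Tnnt1 higher. Myh3 and Tnnt1 thus climbed with Mb in both steps, and the part of the markers in these results was not tested.

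Genes around these steps were followed through 57 genes listed by role, covering purine turnover, creatine synthesis, AMP-activated kinase, fatty acid binding and uptake, and globins, 56 of them in the table and 47 expressed. Between day 0 and day 3, 6 of the 47 rose and 21 fell by limma at an adjusted p under 0.05, beside 13.0% and 18.0% of all expressed transcripts, with a median log2 difference of -0.39 beside -0.08 for all expressed transcripts. In the 4 purine lists alone 1 of 31 rose and 18 fell. Under both other scalings 6 of the 47 rose and 17 fell, and in the purine lists 1 rose and 16 fell. For siKlf5 against siCtrl 0 of the 47 passed after adjustment and 6 had an unadjusted limma p under 0.05 (Ak4, Ak5, Atic, Prkag3, Acsl1 and Lpl), beside 9.90% of all expressed transcripts. For the difference in slope 0 of the 47 passed after adjustment and 2 had an unadjusted p under 0.05 (Atic and Hba-a1), beside 4.90% of all.

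The purine nucleotide cycle, which returns IMP to AMP after deamination, split by isoform. Adssl1, the muscle adenylosuccinate synthase, went from 117 to 617 FPKM in siCtrl cells and from 126 to 487 FPKM in siKlf5 cells, and rose by 2.16 on the log2 scale (SE 0.13, limma adjusted p = 1.24e-05). Its non-muscle counterpart Adss fell by 1.24 (SE 0.11, limma adjusted p = 9.31e-05), from 490.1 to 199.7 FPKM in siCtrl cells and from 438 to 191 FPKM in siKlf5 cells. Ampd2 fell by 0.85, and Adsl, the lyase of the cycle, by 0.41. All 4 genes of this list passed the test, 1 higher and 3 lower, and under both other scalings 1 higher and 2 lower passed, beside 13.0% called higher and 18.0% called lower among all expressed transcripts. Of the other adenylate kinases listed, 5 were expressed and 2 fell: Ak4, a mitochondrial form, by 1.35 and Ak6 by 0.89. None of the 5 passed as higher, beside 13.0% of all expressed transcripts, a share too small to set this list apart. Ak5 and Ak8 had positive fitted values that did not pass (0.42 and 1.29), and no difference from Ak1 was tested.

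Genes that build purines anew passed only as falling. 8 of the 10 fell, or 7 under both other scalings, beside the 18.0% of all expressed transcripts, among them Pfas by 1.24, Ppat, which catalyses the committed step, by 1.09, and Impdh2, which leads IMP towards GMP, by 0.97. Ppat went from 143 to 58.4 FPKM in siCtrl cells and from 126 to 67.2 FPKM in siKlf5 cells. The 2 that did not pass were Atic and Impdh1, with fitted values of -0.43 and -0.35. Of 12 expressed genes of breakdown and salvage, 5 fell and none rose, also under both other scalings. Ada, adenosine deaminase, fell by 1.92 (SE 0.49, limma adjusted p = 0.0186), from 26.5 to 6.65 FPKM in siCtrl cells and from 27.8 to 6.29 FPKM in siKlf5 cells. Pnp2 fell by 1.60, the purine nucleoside phosphorylase Pnp by 1.16, and the salvage enzymes Aprt and Adk by 1.05 and 0.83. Hprt, which salvages hypoxanthine and guanine, had a fitted value of -0.29 and did not pass (limma adjusted p = 0.104).

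Among the 7 subunits of AMP-activated kinase, which senses the AMP that Ak1 makes and AMP deaminase removes, 3 rose and 2 fell, beside 13.0% and 18.0% of all expressed transcripts. Prkag3, the gamma subunit of skeletal muscle, rose by 4.69 (SE 0.27, limma adjusted p = 8.97e-06), Prkaa2, a catalytic subunit, by 2.76 and Prkab2 by 1.20. Prkag3 stood at 12.3, 112, 283 and 413 FPKM in siCtrl cells and at 5.36, 76.4, 94.4 and 136 FPKM in siKlf5 cells. It was lower in the siKlf5 library on each day, with a fitted siRNA difference of -1.20 (SE 0.19), a limma p of 0.000175 and an adjusted p of 0.0962. Prkab1 fell by 0.48 and Prkaa1 by 0.39, calls that were lost under both other scalings.

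Of 5 expressed genes of fatty acid binding and uptake, 1 rose and 1 fell, beside 13.0% and 18.0% of all expressed transcripts, shares too close to 1 of 5 to set this list apart. Cd36, a fatty acid translocase, rose by 4.14 (SE 0.38, limma adjusted p = 0.000128), from 3.44 to 106 FPKM in siCtrl cells and from 4.89 to 74.9 FPKM in siKlf5 cells. Fabp5, the epidermal fatty acid binding protein, fell by 1.43, from 438 to 157 FPKM and from 465 to 177 FPKM, while Fabp1, Fabp2, Fabp4, Fabp6 and Fabp7 did not reach the expression filter. Lpl, lipoprotein lipase, stood at 125, 76.3, 79.4 and 91.8 FPKM in siCtrl cells and at 177, 189, 195 and 205 FPKM in siKlf5 cells. Every siKlf5 value of Lpl lay above every siCtrl value, with a fitted siRNA difference of 1.06 (SE 0.14), a limma p of 6.04e-05 and an adjusted p of 0.0567. Prkag3 and Lpl were singled out for the siRNA comparison after their values were seen. Beside Mb, the globins Hba-a1 and Cygb were expressed and neither passed the test of day 3 against day 0, while Hbb-b1 was at 0 in every library.

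**Figure D4:**
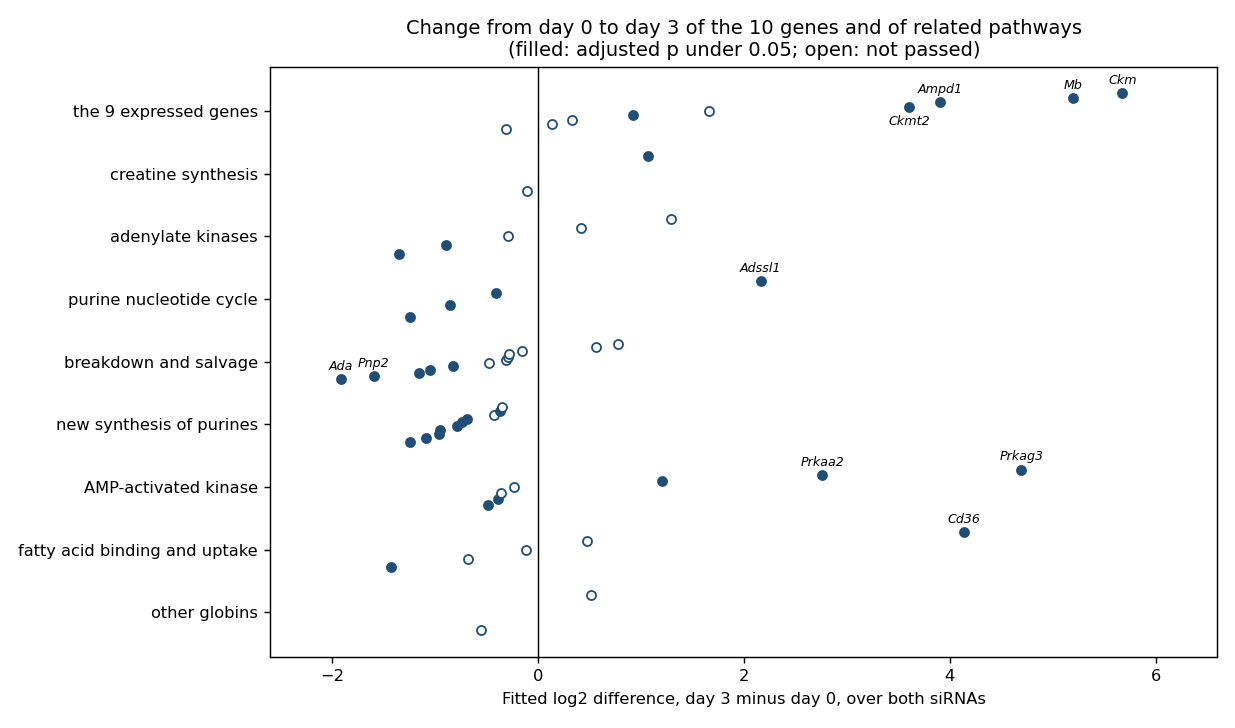
Fitted log2 difference of day 3 minus day 0 over both siRNAs (x axis) for the 9 expressed genes and for 47 expressed genes of related pathways grouped by role (y axis), each point 1 gene, filled where the limma adjusted p was under 0.05. Points of new purine synthesis lie left of 0 with 8 of 10 filled, whereas Ckm, Mb, Prkag3, Cd36, Ampd1 and Ckmt2 lie farthest to the right.

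The 10 genes did not share 1 profile. Each of the 9 expressed genes was set beside the protein-coding transcripts outside the 10 genes with a mean of at least 10 FPKM. The measure was the root mean square difference of log2(FPKM + 1) profiles over the 8 libraries, each centred on its mean. A smaller number means a closer course. The antisense gene A930016O22Rik, whose exons overlap those of Ckm, was outside this pool, so its closeness to Ckm was not measured. The nearest to Ckm were Unc45b at 0.38, Myh3 at 0.40 and Casq2 at 0.44. Those nearest to Mb were Adck3 at 0.23, Ankrd23 at 0.25 and Tmem117 at 0.31. No transcript was named for both, although the 2 genes had the largest rises of the set. The nearest to Ckb were Pkp1 at 0.16, Sv2b at 0.17 and Selm at 0.19, each with its siKlf5 value below its siCtrl value on every day. A direction shared by a gene and its neighbours, here and below, follows in part from choosing them over the same 8 libraries.

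Ckmt2 had no close neighbour, with Ins2 at 0.91, C1s1 at 1.03 and Myh4 at 1.05. Of these, Myh4, a fast myosin heavy chain, was listed at 7.97, 22.6, 71.2 and 228 FPKM in siCtrl cells and at 25.6, 53.0, 231 and 598 FPKM in siKlf5 cells, the higher in siKlf5 cells on each day. The nearest to Ampd1 were Apoe at 0.48, Ins2 at 0.68 and Bmp4 at 0.75. Apoe, an apolipoprotein, was listed at 6.12, 1.25, 39.0 and 77.2 FPKM in siCtrl cells and at 11.7, 12.0, 52.5 and 125 FPKM in siKlf5 cells. The flatter genes had closer neighbours: Ankrd13b at 0.06 for Ampd3, Paip2 at 0.06 for Ak1 and Plekhm2 at 0.07 for Slc6a8. Fabp3, with its day 0 difference, had Eid2 nearest at 0.50.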

How the data were processed

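The authors aligned paired-end reads of polyA RNA to mm9 with STAR and used HOMER to count reads on exons of RefSeq transcripts over both strands, keeping at most 3 reads per position and 1 transcript per gene. The tool versions used for the RNA-seq are not given in the sources used here. The deposited FPKM values are scaled to 10000000 reads per library. A further 8 columns of log2 values in the same table were not used.

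Reads were recovered from each library's smallest step of FPKM times exon length: all values checked (2065 to 2266 per library) lay within 0.1 of whole reads. Transcripts with 6 reads outnumbered those with 5 (463 against 62 in siCtrl cells on day 3), so exact intervals were computed on reads divided by 6.

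log2(FPKM + 1) of 14312 transcripts with a mean of at least 1 FPKM was fitted with limma 3.58.1 (R 4.3.3; eBayes with intensity trend) on day and siRNA, with 3 residual degrees of freedom, and with an added product of siRNA and numeric day for slopes. The count test on recovered reads was not run, since reads came in clumps. p-values were adjusted by Benjamini-Hochberg over all 14312. Alternatives were other pseudocounts, filters, scalings, models and leaving out each day. The named genes are the 10 genes, Klf5 and the 3 nearest protein-coding profiles. From the pathway lists they include, for day 3 against day 0, the 4 largest rises and falls that passed. Further list genes are named to account for each list. Some genes of the pathway and marker lists are not reported here. The genes, lists and motifs were chosen with earlier results of these data known. Promoters came from RefSeq (GRCm38.p6) and exon overlaps from GENCODE vM1 (mm9).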

Additional observations from a re-analysis of the deposited data

How the results depend on the processing

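Libraries of the 2 siRNAs were paired by day through the day term of the fit, and there were no replicate numbers to pair by. For siKlf5 against siCtrl, the fit called 1 transcript higher and 9 lower, which became 3 and 18 with a mean of at least 10 FPKM, where 1 of the 10 genes (Ckb) was called lower. It called 0 and 0 with no filter, with no intensity trend, with siRNA alone, and when the 2 libraries of any 1 day were left out (range 0 to 0), where fewer libraries were fitted; at an unadjusted p under 0.05 each of these alternatives still had between 116 and 782 transcripts in either direction. For day 3 against day 0, no filter gave 907 higher and 1236 lower and 3 of the 10 genes (Ckm, Mb and Ak1), and no intensity trend gave 1535 lower. Genes past 1.5-fold lower numbered 2 on day 1 and 1 on day 2 under both other scalings. At 2-fold, 0 were lower on days 0, 1, 2 and 3, and 1 (Ckmt2) was higher on day 2. Reversed estimates all missed the threshold. For the siRNA difference they came with leaving out 1 day for Ckm (range -0.061 to 0.11), Slc6a8 (-0.055 to 0.072) and Fabp3 (-0.73 to 0.20), and with upper-quartile scaling for Slc6a8 (0.0027). For the slope they came with a pseudocount of 5 for Ckmt2 (0.13) and Ampd1 (0.20), and with leaving out 1 day for Ampd1 (-1.10 to 0.26), Slc6a8 (-0.19 to 0.081), Mb (-0.019 to 0.40) and Fabp3 (-1.33 to 0.18). The causes were not tested. Ckb from day 0 to day 3 passed under upper-quartile and median-ratio scaling (both 0.44), and Fabp3 under median-ratio scaling (1.77) and the filter at 10 FPKM (1.66). Low read numbers limit Ckmt1, Ckmt2, Ampd1, Fabp3 on days 0 and 1, and Ckm and Mb on day 0.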
